A study of Mus musculus with 109 samples.

Results

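The genes described here are the D cyclins Ccnd1, Ccnd2 and Ccnd3, their kinases Cdk4 and Cdk6, the Cip/Kip inhibitors Cdkn1a (p21), Cdkn1b (p27) and Cdkn1c (p57), and the INK4 inhibitors Cdkn2c (p18) and Cdkn2d (p19). These 10 genes were taken by symbol from the 15973 genes of a table of raw counts, whatever their values. The table came from 109 single cells of mouse cerebella at P7, the age in postnatal days, without any genetic change or treatment named in the labels. The labels give the strain as C57BL/6, whereas the methods of the study name ICR pups. Cells of the cerebella were enriched on a Percoll density gradient for granule cell precursors (GCPs), the dividing cells that produce granule cells (GCs), and 1 Smart-seq library was made from each cell captured on a C1 chip. By the labels, the cells belong to 6 library groups (18 or 19 cells each). The labels do not say which animals the cells of a group came from.

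A D cyclin binds Cdk4 or Cdk6, and the active complex phosphorylates the retinoblastoma protein, which frees E2F factors and lets a cell leave G1 for S phase. INK4 proteins bind Cdk4 and Cdk6 and keep D cyclins from them, whereas Cip/Kip proteins bind the assembled cyclin-kinase complexes, Cdk2 complexes included. In the external granular layer (EGL) of the early postnatal cerebellum, Sonic hedgehog from Purkinje cells maintains D cyclins in dividing GCPs, and p27 is known as a protein that accumulates when GCPs leave the cycle.

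Cells were classed by Mki67, which encodes the proliferation antigen KI67. Of the 109 cells, 32 had at least 100 CPM of Mki67 (counts scaled to a total of 1000000 per cell; these cells are called Mki67-high) and 75 had under 10 CPM (Mki67-low). Only 2 cells lay between, and 1 of them had just 15071 counts. The classes were well apart, since the lowest Mki67-high cell had 132 CPM and the highest Mki67-low cell had 9.27 CPM. Each library group held 3 to 8 Mki67-high and 10 to 15 Mki67-low cells. Dcx, a microtubule-associated protein of young migrating neurons, had a median of 240 CPM in Mki67-high and 1781 CPM in Mki67-low cells.

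Total counts ran from 15071 to 8616017 per cell, and the second lowest total was 1110182. The median total was 4157700 in Mki67-high and 3580460 in Mki67-low cells, with medians of 4967.5 and 4193 detected genes. In 2 Mki67-high cells, over 10000 genes were detected. At least 1 of 9 granule lineage markers reached 10 CPM in 109 of 109 cells. The 5 cells with at least 5 of 10 astroglial markers at 50 CPM or more comprised 3 Mki67-high and 2 Mki67-low cells. Markers of inhibitory interneurons were carried at 10 CPM or more by 13 of 75 Mki67-low and 2 of 32 Mki67-high cells. Oligodendrocyte lineage markers were carried by 19 of 32 Mki67-high and 31 of 75 Mki67-low cells, with median sums of 58.9 and 4.69 CPM, and microglial markers by 4 of 32 and 0 of 75. The part of cells with oligodendrocyte lineage or microglial markers in the differences below was not tested. Differences in mean level were also computed without the astroglial and without the interneuron set, and shares of cells without the astroglial set.

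Over all cells, Ccnd2, Cdk4 and Cdkn1b were the members with the highest levels. Per kilobase of exon, the median level over 109 cells was 45 CPM per kb for Ccnd2, 37.4 for Cdk4 and 14.9 for Cdkn1b, and under 0.2 for each of the other 7 genes. The mean level per kilobase was 229 CPM per kb for Ccnd2, 159 for Cdk4, 47.6 for Cdkn1b, 37.2 for Cdkn2d and 28.8 for Cdkn1c. It was 12.6 for Cdk6, 10.3 for Cdkn2c, 6.83 for Ccnd1, 4.52 for Cdkn1a and 0.0493 for Ccnd3. For the rarer genes these means came from few cells. The 5 cells with the highest level held 96.7% of the summed CPM of Cdkn1a, 94.0% of Cdkn2c, 85.1% of Ccnd1 and 74.5% of Cdkn1c, but 27.9% of Ccnd2 and 24.3% of Cdk4.

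**Figure D1:**
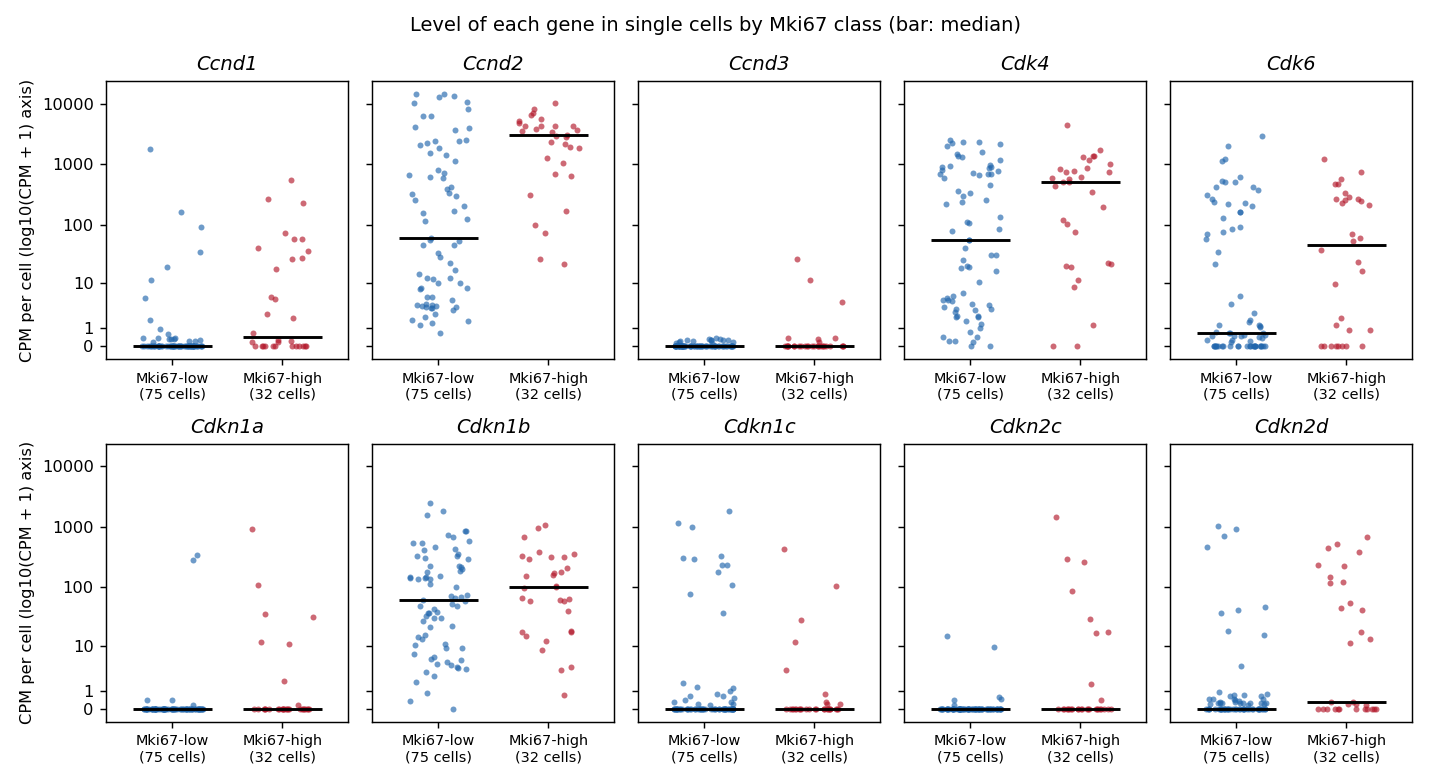
CPM of each gene in single cells (log10(CPM + 1) axis), for 75 Mki67-low cells in blue and 32 Mki67-high cells in red, with a bar at the median of each class. Ccnd2 lay between 22 and 10019 CPM in Mki67-high cells and between 0.643 and 14526 CPM in Mki67-low cells, while Ccnd3 stayed near 0 in both.

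Ccnd2 (chromosome 6, 127125162 to 127152193, minus strand, GRCm38) was the main D cyclin. It had at least 1 count in 109 of 109 cells and the highest level per kilobase of the 3 D cyclins in 105 cells, 30 of 32 Mki67-high and 73 of 75 Mki67-low. In Mki67-high cells its level ran from 22 to 10019 CPM with a median of 2982 CPM. In Mki67-low cells it ran from 0.643 to 14526 CPM with a median of 59.1 CPM. Thus the ranges overlapped, and the highest single values were in Mki67-low cells. A level of 1000 CPM or more was reached by 24 of 32 Mki67-high cells (75%, Wilson 95% interval 57.9 to 86.7) and by 21 of 75 Mki67-low cells (28%, 19.1 to 39). At the other end, 23 of 75 Mki67-low cells (30.7%, 21.4 to 41.8) and 0 of 32 Mki67-high cells had under 10 CPM.

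The difference in Ccnd2 depended on how cells were summarised. For a typical cell it was large. Averaged over cells within each library group, log2(CPM + 1) of Ccnd2 was 4.27 ± 1.95 higher in Mki67-high cells (SD, n = 6 library groups), with 2.36 in the lowest, a median of 3.70 and 7.71 in the highest group. It was higher in 6 of 6 library groups (p = 0.03125 by an exact permutation test that flips the signs of the group differences, two-sided; no smaller p is possible with 6 groups, and adjusted over all genes tested it was 0.345). The median difference over the 9085 genes tested was 0.43, and Ccnd2 exceeded it by 3.84. A limma fit of the same means with library group as a block called 115 genes at an adjusted p-value under 0.01 (1.27% of 9085), of which 111 were higher in Mki67-high cells (1.22%). Ccnd2 was the 1 member among these (limma, adjusted p = 6.53e-06).

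When the raw counts of a class were added up within a library group, the difference in Ccnd2 was much smaller. The sums ran from 2220 to 4693 CPM with a median of 3348 CPM in Mki67-high cells, and from 645 to 3022 CPM with a median of 1642 CPM in Mki67-low cells. The groups overlapped. The quasi-likelihood test of edgeR put the log2 fold change at 0.89 ± 0.38 (SE), with an adjusted p of 0.651. Sums weight each cell by its counts. Mean CPM, which weights cells equally, was 3111 in Mki67-high and 1766 in Mki67-low cells. The 5 Mki67-low cells with the most Ccnd2 held 49.5% of the CPM of that class. Why sums and mean log2 values differed was not tested. On these sums edgeR called 3 genes (0.033% of 9085), which were Mki67, Cdc20 and Tacc3 and included no member. Of the 8 members tested, 2 (Ccnd2 and Cdkn2c) had an unadjusted p-value under 0.05, as had 667 genes (7.34%). For Cdkn2c the Mki67-low sums were near the floor, with a median of 0.0355 CPM.

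Ccnd1 (chromosome 7, 144929931 to 144939925, minus strand), the other D cyclin that responds to Sonic hedgehog, was present in a minority of cells. It reached 10 CPM in 17 of 109 cells, and in the remaining 24 cells with a count it was lower. These 17 cells comprised 11 of 32 Mki67-high (34.4%, Wilson 95% interval 20.4 to 51.7) and 6 of 75 Mki67-low cells (8%, 3.72 to 16.4). Each of the 17 also carried Ccnd2 at 10 CPM or more, as did 86 of all 109 cells (78.9%). The highest level of Ccnd1 was 1788 CPM, in a Mki67-low cell. Mean log2(CPM + 1) was 1.69 ± 1.17 higher in Mki67-high cells, from 0.25 to 3.67 over the groups, and higher in 6 of 6 (exact sign-flip test, p = 0.03125). In the sums edgeR gave 0.65 ± 1.71 (log2 fold change and SE) with an adjusted p of 0.955. The estimate was -0.21 without library group 5 and 2.60 without group 1. The deposited counts do not tell the strand, and 23.4% of the exon bases of Ccnd1 overlap the gene LTO1 on the other strand.

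Ccnd3 (chromosome 17, 47505051 to 47599691, plus strand) was close to absent. It had a count in 21 of 109 cells, of 1 to 4 counts in 18 of them, and the highest level was 26.8 CPM. The 2 cells that reached 10 CPM were Mki67-high, carried astroglial markers and were those with over 10000 detected genes. Among Mki67-low cells 0 of 75 reached 10 CPM (Wilson 95% interval up to 4.87%). Ccnd3 did not pass the filter of the edgeR test. DESeq2 on the sums, which called 377 of 12586 genes (3%; 2.13% higher in Mki67-high cells), called Ccnd3 at 5.03 ± 1.19 (DESeq2, log2 and SE, adjusted p = 0.00127). Without cells with astroglial genes, no cell of either class reached 10 CPM.

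Of the kinases, Cdk4 (chromosome 10, 127063534 to 127067920, plus strand) was the more abundant. It had the higher level per kilobase in 91 of the 108 cells with a count of either kinase, 29 of 32 Mki67-high and 60 of 74 Mki67-low. In Mki67-high cells Cdk4 ran from 0 to 4353 CPM with a median of 508 CPM, and in Mki67-low cells from 0 to 2470 CPM with a median of 55.6 CPM. The ranges overlapped widely. A level of 10 CPM was reached by 28 of 32 Mki67-high (87.5%, Wilson 95% interval 71.9 to 95) and 47 of 75 Mki67-low cells (62.7%, 51.4 to 72.7), and the share was higher in Mki67-high cells in 6 of 6 library groups (exact sign-flip test, p = 0.03125; 5.93% of the 9085 genes were higher in every group by this measure). Without cells with astroglial genes it was higher in 5 groups and equal in 1 (p = 0.0625). Shares of cells with at least 1 count differed little, at 30 of 32 and 73 of 75.

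Mean log2(CPM + 1) of Cdk4 was 1.97 ± 0.93 higher in Mki67-high cells, from 0.72 to 3.59 over the library groups, and 1.54 above the median of all genes. It was higher in 6 of 6 groups (exact sign-flip test, p = 0.03125). Altogether 4 of the 8 tested members (Ccnd1, Ccnd2, Cdk4 and Cdkn2d) were higher in every library group, against 717 of the 9085 genes (7.89%), and 0 members were lower in every group, against 1.17%. In the sums, Cdk4 ran from 298 to 1225 CPM in Mki67-high and from 265 to 642 CPM in Mki67-low cells, and the estimate of edgeR was 0.69 ± 0.51 (adjusted p = 0.799). Of the exon bases of Cdk4, 19.7% overlap Tspan31 on the other strand.

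The sequences before the RefSeq starts of Cdk4, Cdkn2d and Cdkn1b are shown to set the members side by side. Cdkn2d is an inhibitor whose mean was also higher in Mki67-high cells in 6 of 6 library groups, and Cdkn1b was the most abundant inhibitor. Promoters in RefSeq's annotation of GRCm38.p6 were given for 7 of the 10 genes, and Ccnd1, Ccnd2 and Cdkn1c were not matched. In the 250 bases before the RefSeq start, both strands were searched for 4 motifs. RefSeq starts can differ from those of GENCODE, which gave the gene positions in this text. By GENCODE, most of the Cdkn2d window, with its 3 GC boxes, lies inside the gene, and the Cdk6 window lies wholly inside it. The motifs were an E2F motif (TTTCCCGC, TTTCGCGC, TTTGGCGC or TTTGCCGC), the cell cycle homology region TTTGAA, the GC box GGGCGG and the E-box CACGTG. The windows of the 7 genes held neither the E2F motif nor TTTGAA, which occurred in 1.86% and 16% of all 32851 promoters. The GC box occurred in 32.7% of all promoters and, among those shown, once before Cdk4, 3 times before Cdkn2d and once before Cdkn1b. The E-box occurred in 6.02% of all promoters and 4 times in the window of Cdk4, a number that 7 of all promoters reached. Such matches are a description of letters and do not show that a factor binds. In the following lines (5′ to 3′ on the gene's strand) capitals mark E-boxes and GC boxes.
Cdk4, chr10:127063285-127063534, plus strand: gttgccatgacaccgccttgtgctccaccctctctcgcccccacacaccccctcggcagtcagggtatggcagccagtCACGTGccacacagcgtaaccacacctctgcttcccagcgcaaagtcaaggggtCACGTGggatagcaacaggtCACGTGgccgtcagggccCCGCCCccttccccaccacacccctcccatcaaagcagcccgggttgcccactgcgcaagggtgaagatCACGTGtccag
Cdkn2d, chr9:21291210-21291459, minus strand: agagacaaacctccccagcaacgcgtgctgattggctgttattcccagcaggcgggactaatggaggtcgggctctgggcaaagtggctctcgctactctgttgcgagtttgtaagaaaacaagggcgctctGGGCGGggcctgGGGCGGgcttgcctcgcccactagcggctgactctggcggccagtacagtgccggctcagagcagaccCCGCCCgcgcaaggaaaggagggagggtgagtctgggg
Cdkn1b, chr6:134920151-134920400, plus strand: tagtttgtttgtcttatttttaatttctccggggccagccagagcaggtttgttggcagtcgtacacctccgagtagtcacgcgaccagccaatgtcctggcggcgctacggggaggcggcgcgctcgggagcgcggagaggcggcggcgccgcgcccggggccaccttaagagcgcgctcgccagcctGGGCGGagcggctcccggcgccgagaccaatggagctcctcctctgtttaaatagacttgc

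Cdk6 (chromosome 5, 3341485 to 3531008, plus strand) was found in fewer cells. It reached 10 CPM in 19 of 32 Mki67-high (59.4%, Wilson 95% interval 42.3 to 74.5) and 27 of 75 Mki67-low cells (36%, 26.1 to 47.3), with a higher share in 4 of 6 library groups (exact sign-flip test, p = 0.15625). Its median level was 45.9 CPM in Mki67-high and 0.667 CPM in Mki67-low cells. The highest level was 2962 CPM, in a Mki67-low cell. Mean log2(CPM + 1) differed by 1.76 ± 2.80, between -1.21 and 6.49 over the groups, and was higher in Mki67-high cells in 4 of 6 groups, or 3 of 6 without cells with interneuron genes (1.47). In the sums edgeR put the log2 difference at 0.04 ± 0.78 (SE, adjusted p = 0.996). Its level went with that of Ccnd2 in Mki67-low cells, with a Spearman correlation of 0.51 over 75 cells, against -0.05 over the 32 Mki67-high cells. Of the 27 Mki67-low cells with Cdk6 at 10 CPM, 24 also carried Ccnd2, as did 52 of all 75 Mki67-low cells (69.3%). For Cdk4 and Ccnd2 the correlation in Mki67-low cells was 0.15. The unit of the tests was the library group and not the cell, so these values are descriptions.

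Among the Cip/Kip inhibitors, Cdkn1b (chromosome 6, 134920401 to 134925513, plus strand) had the highest level per kilobase of the 5 inhibitors in 72 of 108 cells. It had a count in 32 of 32 Mki67-high and 74 of 75 Mki67-low cells. Its level ran from 0.703 to 1080 CPM with a median of 99.7 CPM in Mki67-high cells, and from 0 to 2480 CPM with a median of 62.5 CPM in Mki67-low cells. The classes thus covered nearly the same range. A level of 10 CPM was reached by 28 of 32 (87.5%, Wilson 95% interval 71.9 to 95) and 57 of 75 cells (76%, 65.2 to 84.2). Mean log2(CPM + 1) differed by 0.46 ± 1.06, which was 0.03 above the median of all genes, and was higher in Mki67-high cells in 4 of 6 groups (exact sign-flip test, p = 0.3125). From the sums edgeR estimated -0.06 ± 0.86 (log2, SE, adjusted p = 0.996), and 0.18 with RLE in place of TMM scaling. A standard error of this size does not show that the levels were equal.

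Cdkn1b differed more between library groups than between Mki67 classes. Its median level over the cells of a group was 20.1 CPM in library group 3, 21.9 in group 1, 49.8 in group 6, 60.8 in group 2, 238 in group 5 and 356 in group 4. In groups 4 and 5 it reached 10 CPM in 17 of 18 cells each, and in the other groups in 66.7% to 78.9% of cells. This order is a description, since a library group is 1 unit. For comparison, the median of Ccnd2 was lowest in group 4, at 12.5 CPM, and 185 to 1616 CPM in the other groups.

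Cdkn1a (chromosome 17, 29090976 to 29100727, plus strand), a target of p53, reached 10 CPM in 8 cells of library groups 3, 5 and 6. They comprised 6 of 32 Mki67-high (18.8%, Wilson 95% interval 8.89 to 35.3) and 2 of 75 Mki67-low cells (2.67%, 0.734 to 9.21), with a higher share in Mki67-high cells in 3 library groups and an equal share in the other 3 (exact sign-flip test, p = 0.25). The highest level was 917 CPM, in a Mki67-high cell. Without cells with astroglial genes the numbers were 4 of 29 and 2 of 73. Cdkn1a did not pass the filter of the edgeR test.

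Cdkn1c (chromosome 7, 143458339 to 143461050, minus strand), an imprinted gene, had the lowest difference in mean log2(CPM + 1) between the classes of the 10 members. It reached 10 CPM in 4 of 32 Mki67-high (12.5%, Wilson 95% interval 4.97 to 28.1) and 12 of 75 Mki67-low cells (16%, 9.4 to 25.9). The highest level in a Mki67-low cell was 1823 CPM, and in a Mki67-high cell 437 CPM. Of the 4 Mki67-high cells, 3 carried astroglial genes. Without these cells, Cdkn1c reached 10 CPM in 1 of 29 Mki67-high and 12 of 73 Mki67-low cells, a lower share in Mki67-high cells in 5 of 6 groups and an equal one in 1 (exact sign-flip test, p = 0.0625; with all cells it was lower in 4, and 0.264% of genes were lower in every group). With all cells, mean log2(CPM + 1) differed by -0.62 ± 0.85 and was lower in Mki67-high cells in 4 of 6 groups and higher in 2. Without cells with astroglial genes it was -1.01 (lower in 5 and higher in 0, exact sign-flip test, p = 0.0625), and without those with interneuron genes -0.64 (lower in 4 and higher in 1). Between cells with 200 CPM or more and cells with no count of Mki67 the direction turned, to 0.51 over 5 library groups (higher in 4 and lower in 0). For the sums, edgeR estimated -2.47 ± 1.90 (log2, SE, adjusted p = 0.804). Low counts of 1 to 4 were found in 18 further cells, and 30.7% of the exon bases of Cdkn1c overlap Gm44732 on the other strand.

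**Figure D2:**
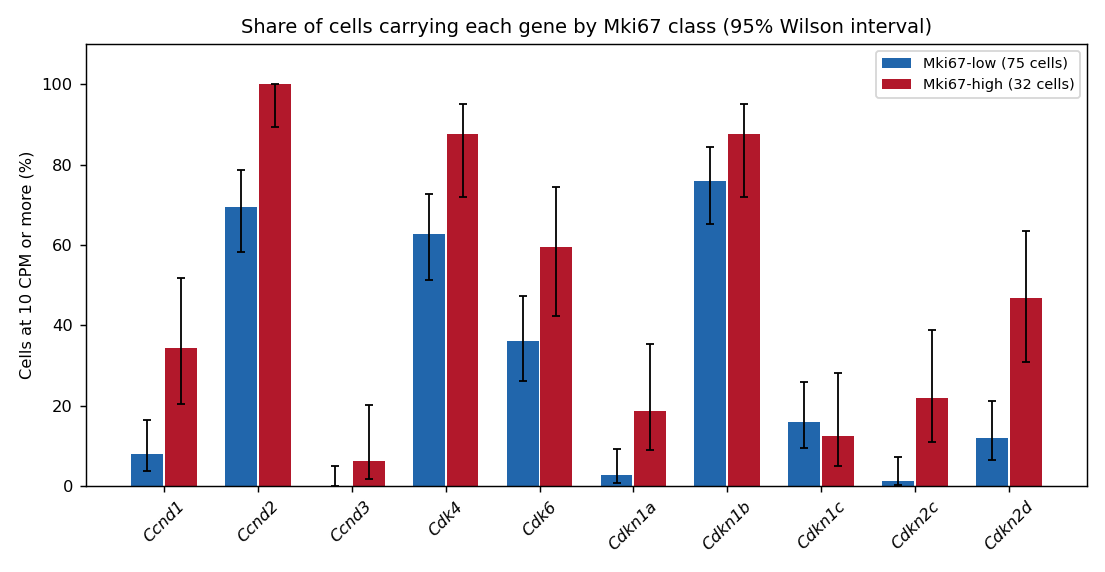
Percentage of cells with each gene at 10 CPM or more among 75 Mki67-low cells (blue) and 32 Mki67-high cells (red), with 95% Wilson intervals, which cover counting error only. Cdkn2d was carried by 46.9% of Mki67-high and 12% of Mki67-low cells, whereas Cdkn1b was carried by most cells of both classes.

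At the limit of 10 CPM, the INK4 inhibitors Cdkn2c and Cdkn2d were each carried by a larger share of Mki67-high than of Mki67-low cells. At least 1 of the pair reached 10 CPM in 18 of 32 Mki67-high (56.3%, Wilson 95% interval 39.3 to 71.8) and 10 of 75 Mki67-low cells (13.3%, 7.41 to 22.8). In 6 of 6 library groups the Mki67-high cells had the higher share, and the mean gap was 41.9 ± 11.5 points (SD, n = 6; exact sign-flip test, p = 0.03125). By this measure Cdkn2d alone was higher in 6 of 6 groups, and Cdkn2c alone in 4. The result for the pair could thus follow from Cdkn2d and is no separate test of Cdkn2c. Of the 9085 single genes, 5.93% had a higher share in every group, and no such background was computed for pairs of genes. Without cells with astroglial genes, at least 1 of the pair was carried by 15 of 29 and 10 of 73 cells, again a higher share in 6 of 6 groups. By comparison, at least 1 of the 3 Cip/Kip genes reached 10 CPM in 29 of 32 and 60 of 75 cells, with a higher share in 3 groups, a lower one in 1 and an equal one in 2 (p = 0.375). The table does not list Cdkn2a and Cdkn2b, the other INK4 genes, which were not analysed here.

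Cdkn2d (chromosome 9, 21288410 to 21291407, minus strand) reached 10 CPM in 15 of 32 Mki67-high (46.9%, Wilson 95% interval 30.9 to 63.6) and 9 of 75 Mki67-low cells (12%, 6.44 to 21.3), a higher share in 6 of 6 groups (exact sign-flip test, p = 0.03125). With at least 1 count, the measure chosen at first, it was 20 of 32 against 35 of 75 cells, higher in 5 of 6 groups (p = 0.125), and 30 of all cells had only 1 to 4 counts. The highest level was 688 CPM in a Mki67-high and 1021 CPM in a Mki67-low cell. Mean log2(CPM + 1) was 2.26 ± 1.07 higher in Mki67-high cells, from 0.93 to 3.34 over the groups, and 1.84 above the median of all genes. It was higher in 6 of 6 groups (p = 0.03125), but with medians over cells in place of means p was 0.1875. The sums ran from 4.59 to 229 CPM in Mki67-high and from 0.0280 to 81.2 CPM in Mki67-low cells, for which edgeR estimated 1.17 ± 1.47 (log2, SE, adjusted p = 0.895). Cdkn2d was the inhibitor with the highest level per kilobase in 10 of 32 Mki67-high and 8 of 74 Mki67-low cells.

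Cdkn2c (chromosome 4, 109660876 to 109667189, minus strand) reached 10 CPM in 7 of 32 Mki67-high (21.9%, Wilson 95% interval 11 to 38.8) and 1 of 75 Mki67-low cells (1.33%, 0.236 to 7.17), and in both cells between the classes, 1 of which had 5 counts of it in a total of 15071. The highest level was 1443 CPM in a Mki67-high and 14.9 CPM in a Mki67-low cell. The share was higher in Mki67-high cells in 4 groups and equal in the other 2 (exact sign-flip test, p = 0.125). Of the 7 Mki67-high cells, 3 carried astroglial genes, and without such cells it was 4 of 29 against 1 of 73, higher in 2 groups (p = 0.5). Mean log2(CPM + 1) was 1.33 ± 1.48 higher in Mki67-high cells, in 5 of 6 groups (exact sign-flip test, p = 0.0625), and 0.99 without cells with astroglial genes, where it was higher in 3 groups and lower in 2. The sums had a median of 16.3 CPM in Mki67-high and 0.0355 CPM in Mki67-low cells. The estimate of edgeR, 6.01 ± 2.38 (log2, SE, adjusted p = 0.610), compares sums of 0 to 5559 counts in Mki67-high with sums of 0 to 49 counts in Mki67-low cells.

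**Figure D3:**
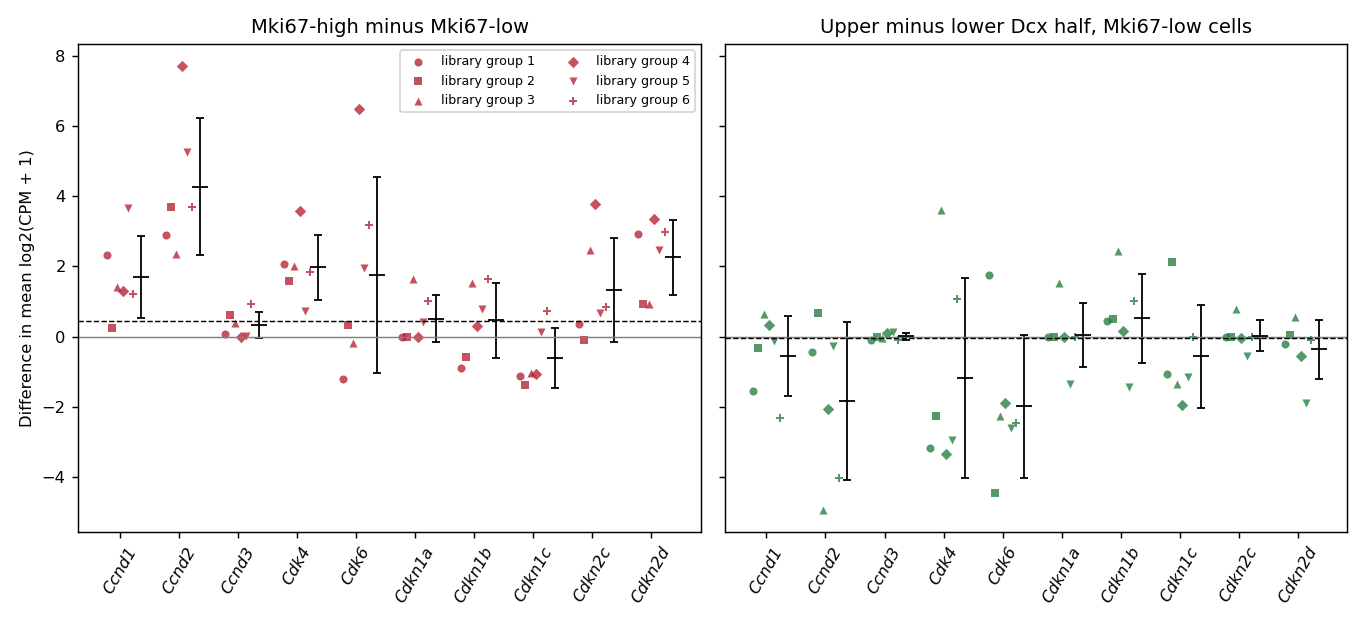
Difference in mean log2(CPM + 1) for each gene, with 1 marker per library group, the mean with its SD at the right of each gene (n = 6), and a dashed line at the median of all genes tested (0.43 on the left, -0.04 on the right). On the left (Mki67-high minus Mki67-low cells) the markers of Ccnd1, Ccnd2, Cdk4 and Cdkn2d all lie above 0, and on the right (upper-Dcx minus lower-Dcx cells among Mki67-low cells) every gene has markers on both sides of 0.

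Ccnd2 was carried at 10 CPM or more by 32 of 32 Mki67-high cells, so the share of these cells with Ccnd2 and a kinase was that of the kinases. Cdk4 or Cdk6 accompanied it in 29 of the 32 cells (90.6%, Wilson 95% interval 75.8 to 96.8), and both in 18. Among Mki67-low cells, Ccnd2 with Cdk4 or Cdk6 was found in 43 of 75 (57.3%, 46.1 to 67.9), and with both in 15. An inhibitor of any kind was carried by 30 of 32 Mki67-high and 61 of 75 Mki67-low cells, and 2 or more kinds by 19 of 32 and 16 of 75.

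To see whether the members differ with Dcx where Mki67 is low, the 75 Mki67-low cells were divided at their median of 1781 CPM of Dcx, into 38 upper-Dcx and 37 lower-Dcx cells. Library groups were the unit here too. On the sums edgeR called 1 of 6683 genes (0.015%), Dcx itself. Of the 6 members tested, 1 (Ccnd2) had an unadjusted p-value under 0.05, as had 5.18% of genes. The 2 Mki67-low cells with astroglial genes were both lower-Dcx cells, and interneuron markers were carried by 3 lower-Dcx and 10 upper-Dcx cells.

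Ccnd2 and Cdk6 had lower values in upper-Dcx cells in most library groups. Median Ccnd2 was 39.6 CPM in upper-Dcx and 201 CPM in lower-Dcx cells, and mean log2(CPM + 1) differed by -1.84 ± 2.25 (SD, n = 6), from -4.94 to 0.68. It was lower in 5 of 6 groups (exact sign-flip test, p = 0.125, or 0.888 when adjusted over all genes tested). From the sums edgeR estimated -1.82 ± 0.84 (log2, SE, adjusted p = 0.952), and -0.54 without library group 3. Of the 21 Mki67-low cells with Ccnd2 at 1000 CPM or more, 13 were lower-Dcx and 8 upper-Dcx cells. Cdk6 differed by -1.99 ± 2.05, from -4.48 to 1.77, and was lower in 5 of 6 groups (exact sign-flip test, p = 0.0625, or 0.874 when adjusted). It was carried by 10 of 38 upper-Dcx and 17 of 37 lower-Dcx cells. Without cells with interneuron genes, Ccnd2 was lower in 4 of 6 groups (-1.70, p = 0.1875) and Cdk6 in 5 of 6 (-1.16, p = 0.28125).

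For the other tested members the groups pointed both ways. Cdk4 differed by -1.18 ± 2.86 and was lower in 4 of 6 groups, Cdkn2d by -0.36 ± 0.84 (lower in 4), and Cdkn1c by -0.57 ± 1.46 (lower in 4 and higher in 1). Cdkn1b was carried by 32 of 38 upper-Dcx (84.2%, Wilson 95% interval 69.6 to 92.6) and 25 of 37 lower-Dcx cells (67.6%, 51.5 to 80.4), a higher share in 5 of 6 groups (exact sign-flip test, p = 0.0625; 0.853% of genes were higher and 0.673% lower in every group). Its median level did not follow, with 51.5 CPM in upper-Dcx and 68.2 CPM in lower-Dcx cells, and mean log2(CPM + 1) differed by 0.52 ± 1.26 (p = 0.34375). No member was above or below 0 in every group, against 1.41% and 1.65% of the 6683 genes.

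**Figure D4:**
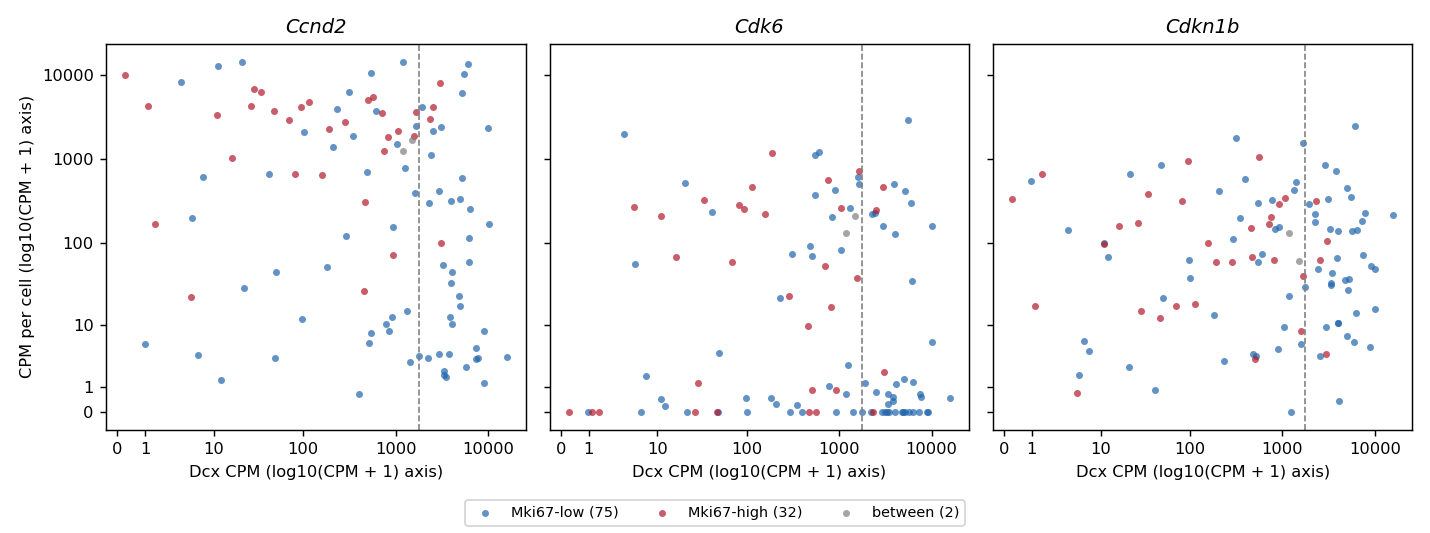
CPM of Ccnd2, Cdk6 and Cdkn1b against CPM of Dcx in 109 cells (log10(CPM + 1) axes), coloured by Mki67 class, with a dashed line at the median Dcx level of the Mki67-low cells (1781 CPM). Mki67-low cells with over 1000 CPM of Ccnd2 lie on both sides of the line, and the Spearman correlation of Cdkn1b with Dcx was -0.02 over the 109 cells.

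When all 109 cells were ranked by Dcx and divided into 3 bins of 36, 37 and 36 cells, median Ccnd2 was 1753 CPM in the lowest, 1138 CPM in the middle and 50.1 CPM in the highest bin, which held 17, 14 and 3 cells with Mki67 at 10 CPM or more. Median Cdk4 was 207, 507 and 19.5 CPM, and median Cdkn1b was 65.4, 150 and 51.5 CPM. Over the same cells the Spearman correlation with Dcx was -0.29 for Ccnd2, -0.28 for Ccnd1, -0.27 for Cdkn2d and -0.02 for Cdkn1b. In the 75 Mki67-low cells it was -0.18 for Ccnd2, -0.20 for Cdkn2d and 0.04 for Cdkn1b. With the number of detected genes, the correlation over 109 cells was 0.48 for Ccnd1, 0.41 for Cdkn2d, 0.25 for Ccnd2 and 0.08 for Cdkn1b. The part of detected genes in the differences between classes was not tested.

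Genes that act with the members were taken from 7 lists, of which 31 of 34 genes were tested between the Mki67 classes. None was called by edgeR on the sums, and 7 had an unadjusted p-value under 0.05, where 7.34% of all genes did. The median log2 fold change over all genes was -0.18. The 4 tested genes of the S phase cyclins and Cdk2 had a median of 4.76, led by cyclin A2 (Ccna2, 6.36, adjusted p = 0.364) and the Cdk2-activating phosphatase Cdc25a (4.89, adjusted p = 0.668). The 5 mitotic cyclins and Cdk1 had a median of 3.24, with 5.56 for cyclin B1 (Ccnb1) and 5.20 for Cdk1. In the comparison by Dcx, which used Mki67-low cells alone, 3 of 5 S phase and 1 of 5 mitotic genes passed the filter. Their large values may therefore rest on Mki67-low sums near the floor, as for Cdkn2c. The classes were themselves cut on a proliferation gene. For the E2F and DP factors, transcription factors of cell cycle genes, the median over 9 genes was 1.04, and the largest values were those of the atypical repressors E2f8 (4.4) and E2f7 (3.87).

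The pocket proteins, which D cyclin kinases phosphorylate, had a median of 0.44 over 3 genes, with 3.79 for p107 (Rbl1) and -0.65 for p130 (Rbl2). Genes of p27 turnover had a median of 1.06 over 5 genes, with 3.54 for Cks2 and 1.29 for Cks1b, an adaptor of the ligase that marks p27 for degradation. The Cdk-activating kinase had 0.66 over 3 genes, with 1.63 for Mnat1 and -1.59 for cyclin H (Ccnh). For D cyclin turnover, the 2 tested genes had -0.86 (Ambra1, a receptor for degradation of D cyclins) and -0.47 (Gsk3b). These lists held values further from 0 than Ccnd2 at 0.89 and Cdk4 at 0.69. Their standard errors were wide, however, at 1.71 for Ccna2 and 1.64 for Ccnb1. With Mki67-low sums that may lie near the floor, such sizes cannot be ranked against those of Ccnd2 and Cdk4. Between upper-Dcx and lower-Dcx cells, 0 of 20 tested genes of these lists were called and 3 had an unadjusted p-value under 0.05.

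Genes with a pattern like that of a member were sought by the Spearman correlation of CPM over all 109 cells, among 8170 genes with a count in at least 20% of cells. Among the members detected in at least 30 cells, Ccnd2 and Cdkn2d alone had any at 0.5 or above. For Ccnd2 these were Mfap4 (0.53), which encodes a protein of the extracellular matrix, and Set (0.51), which encodes a histone chaperone. For Cdkn2d they were Kif22 (0.53), a kinesin of the mitotic spindle, and Cdca8 (0.53), the borealin subunit of the chromosomal passenger complex. These correlations are over cells that share library groups and differ in depth, and they are descriptions.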

How the data were processed

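The authors aligned the reads of each cell to mm10 with STAR 2.4.1d and counted them per gene with HTSeq-count 0.6.1 (tools and versions per the labels' processing notes), and deposited raw counts without normalization. The annotation and strand setting are not given in the sources used here. Listed genes have a count in at least 3 cells. Reads carry no molecular identifiers, so intervals cover counting error only.

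Columns were matched to samples by title, and the title's last part gave the library group. Whether these are the study's batches, cultures or animals is not stated, so p-values measure the spread between library groups, which may be technical. No cell was removed. CPM were counts scaled to 1000000 per cell. Raw counts were summed per class and library group, filtered with filterByExpr and TMM-scaled, and tested with edgeR 4.0.16 (quasi-likelihood, Benjamini-Hochberg, called at an adjusted p under 0.01), after a check on simulated counts. The unit of the sign-flip tests was the library group's difference, with a pseudocount of 1. edgeR was run without a block, while sign-flip tests and limma compared classes within library groups. Alternatives used DESeq2 1.42.0, limma 3.58.1, RLE scaling, no filter, other Mki67 and Dcx limits, cells thinned to 1000000 counts, a pseudocount of 10, 5 counts for detection, and fewer cells or groups. The share of cells at 10 CPM, medians over cells, and mean differences at other Mki67 limits, after thinning, without astroglial or interneuron cells, without cells of unusual depth or in the outer of 3 bins by Dcx were added after the values were seen.

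The genes, lists and tests were chosen with earlier results of these data known. Text names the 10 genes, in each list the 2 genes with the largest change, Mki67, Dcx, genes called, and up to 3 alike genes at a correlation of 0.5 or more. Gene positions and exon lengths come from GENCODE on GRCm38, promoters from RefSeq on GRCm38.p6.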

Additional observations from a re-analysis of the deposited data

Results flagged for a closer look

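Sums of a class in 1 library group that stood apart from those in the other groups, by Dixon's test for 6 values, were found in 6 of 40 sets of values, where chance alone flags about 1 in 20. Each was a highest value. In Mki67-high cells, Cdkn1a reached 84.2 CPM in library group 3 (next highest 10.2), where 1 cell had 917 CPM, and Cdkn2c reached 169 CPM in the same group (next 40.3), where 1 cell had 1443 CPM. Cdkn1c reached 93.2 CPM in library group 2 (next 10.8), where 1 cell had 437 CPM, and Ccnd3 reached 8.66 CPM in library group 6 (next 2.37), where 1 cell with astroglial genes had 26.8 CPM. In Mki67-low cells, Ccnd1 reached 112 CPM in library group 1 (next 24.2), where 1 cell had 1788 CPM, and Cdkn1c reached 397 CPM in library group 2 (next 98.8), where 2 cells had 1823 and 1177 CPM.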

How the results depend on the processing

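Between the Mki67 classes edgeR called 3 genes, 7 at an adjusted p under 0.05, 7 with RLE scaling, 1 with the library group as a replicate block, 1 for Mki67 at 200 CPM or more against no count, and 2 to 3 when each library group was left out in turn. DESeq2 called 377 and limma on mean log2 values 115. Between upper-Dcx and lower-Dcx cells edgeR called 1 gene, also without any one library group, and DESeq2 420. Of the 8 log2 fold changes between Mki67 classes, that of Cdkn1b turned positive with RLE (0.18), DESeq2 (0.15), limma (0.46), Mki67 at 10 CPM or more against less (0.029) and 200 CPM or more against no count (0.29). Cdk6 turned to -0.023 with no filter and -0.034 at the 200 CPM limit, where Cdk4 was -0.15. Leaving out single library groups, Ccnd1 ranged from -0.21 to 2.60, Cdk6 from -0.19 to 0.63 and Cdkn1b from -0.23 to 0.36. Between Dcx classes these ranges were -0.82 to 0.0058 for Cdk4, -0.10 to 0.68 for Cdkn1b and -3.51 to 1.58 for Cdkn1c. Cdkn1b was -0.17 after thinning, and Cdkn1c -0.14 with RLE, -3.92 with the block and -0.57 with limma. Mean log2 differences turned between Mki67 classes for Cdkn1c at the 200 CPM limit (0.51), and by Dcx for Cdkn1b with medians (-0.21), for Cdkn1c and Cdkn2d in the outer of 3 Dcx bins (0.25 and 0.36), and for Cdkn2d without interneuron genes (0.083). The share of cells with Cdk4, -0.83 points by 1 count, was 8.40 at 5 counts, 5.73 after thinning and 27.3 at 10 CPM, and that of Cdkn1b turned from 1.28 to -0.80 after thinning. The causes of these changes were not tested. The block changed no call of a member on the sums. Samples with the same library group number deviated together only weakly (correlations 0.043 to 0.125 between Mki67 classes and 0.017 to 0.070 between Dcx classes), so edgeR was kept without the block. The sign-flip tests and limma compare classes within library groups. Of 150 mean log2 differences between Mki67 classes under an alternative, 118 kept direction and side of the threshold, 1 turned, Cdkn2c passed at the 10 CPM limit (exact p = 0.03125), and 30 kept the direction alone. These 30 were Ccnd1 and Cdkn2d with medians (exact p = 0.125 and 0.1875), and Ccnd1, Ccnd2, Cdk4 and Cdkn2d at the 200 CPM limit (exact p = 0.0625 to 0.1875) and without any one library group, where 5 groups allow no p under 0.0625. With biological coefficients of variation of 172% and 184% and 3 to 8 Mki67-high cells per group, small differences were not detectable.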
